A study of Mus musculus with 18 samples.

Results

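Imprinted genes are transcribed mainly from the copy inherited from 1 parent. The genes described here are 40 imprinted mouse genes, chosen by name and with earlier results of these data known. They were grouped by chromosomal locus and by the parental allele that is known to be active. They were followed in mouse embryonic fibroblasts (MEFs) immortalised with SV40, in 3 samples labelled Tdg+/- (1 working copy of Tdg, clone 4) and 3 samples labelled Tdg-/- (no working copy, clone 9). Tdg encodes thymine DNA glycosylase, a repair enzyme that excises thymine from G:T mismatches and oxidised methylcytosine from DNA. The labels give the same serum-containing medium for all 6 samples, and 13 µg of total RNA per sample went onto Affymetrix arrays. The design text of the series also names ES cells and neuronal precursors, whose arrays were not used here. Each genotype was represented by a single clone, so genotype and clone cannot be told apart. Whether the 3 samples of a genotype were separate cultures is not stated in the labels, and p-values here reflect the variation among those samples alone, possibly of technical origin. The number of arrays limits the precision.

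Imprints are laid down in the germ line as DNA methylation at control regions and are kept through cell division by maintenance methylation. Imprinted genes lie in clusters in which one control region can govern genes read from the maternal and from the paternal copy. Many of the genes read from the paternal copy promote fetal growth, and several read from the maternal copy restrain it. The imprinting of some genes, among them several in the Kcnq1 domain, is known mainly from the placenta, and that of Ube3a from neurons.

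Of the 40 genes, 38 had at least 1 probe set on the array, 74 probe sets in all among 22690; the exceptions were Dio3 and Slc22a3. Where a gene had several, the one with the highest mean over the 6 arrays was used, and 37 of the genes entered a test over 12394 genes. The remaining gene, H19, was read from a probe set that is also annotated to Mir675, and its p-value comes from a second test over all probe sets. Levels are log2 values as deposited. As a reference for low signal, 33 probe sets of olfactory receptor genes had a median level of 6.29 and a 90th percentile of 7.03. The mean level of 24 of the 37 genes lay above that 90th percentile. The other 13 did not exceed it, so their expression was not established: Kcnq1, Phlda2, Magel2, Mkrn3, Usp29, Zim1, Peg10, Asb4, Calcr, Tfpi2, Nap1l5, Rasgrf1 and Gatm. Genes such as these may also have understated fold changes.

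Tdg itself checked the labels: its 3 probe sets, each shared with Tdg pseudogenes, were 3.46-fold to 6.30-fold lower in Tdg-/- MEFs, with every Tdg-/- array below every Tdg+/- array. Of 19 measured fibroblast markers, 17 lay above the olfactory 90th percentile, against 1 of 10 for muscle, 2 of 10 for epithelial, 3 of 9 for haematopoietic, 3 of 10 for pluripotency, 4 of 10 for endothelial, 5 of 15 for neural and 5 of 11 for trophoblast markers. One array stood apart: Tdg+/- replicate 1 correlated at 0.953 to 0.962 with the other arrays of its group, which correlated at 0.997 with each other. It lay outside the range of the other 5 arrays for 45 of the 74 imprinted probe sets, above it for 25 and below it for 20. These are 33.8% and 27% of the imprinted probe sets, against 34.1% and 42.7% of all probe sets. Gene calls that changed without this array are given with and without it, as are the differences that it moved most.

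In the fibroblasts without Tdg, Igf2, Plagl1, Dlk1, Slc38a4, Mest and Cdkn1c fell, by 1.73-fold to 3.26-fold, Ndn rose 2.17-fold, and 30 of the 37 genes did not pass the test (adjusted p under 0.05 with limma). H19 fell as well, by 2.18-fold, in the test over all probe sets. The 6 falls are 16.2% of the imprinted genes, whereas 1.32% of all genes tested fell. Because the genes were chosen with earlier results of these data known, this share describes the list only and was not tested. The single rise is 2.7%, against 2.52% of all genes, and so is near the background. In all, 475 genes, or 3.83%, passed, of which 312 rose and 163 fell; after quantile normalization 335 rose and 268 fell. The median log2 fold change, Tdg-/- minus Tdg+/-, was -0.18 over the 37 genes and -0.02 over all genes.

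**Figure D1:**
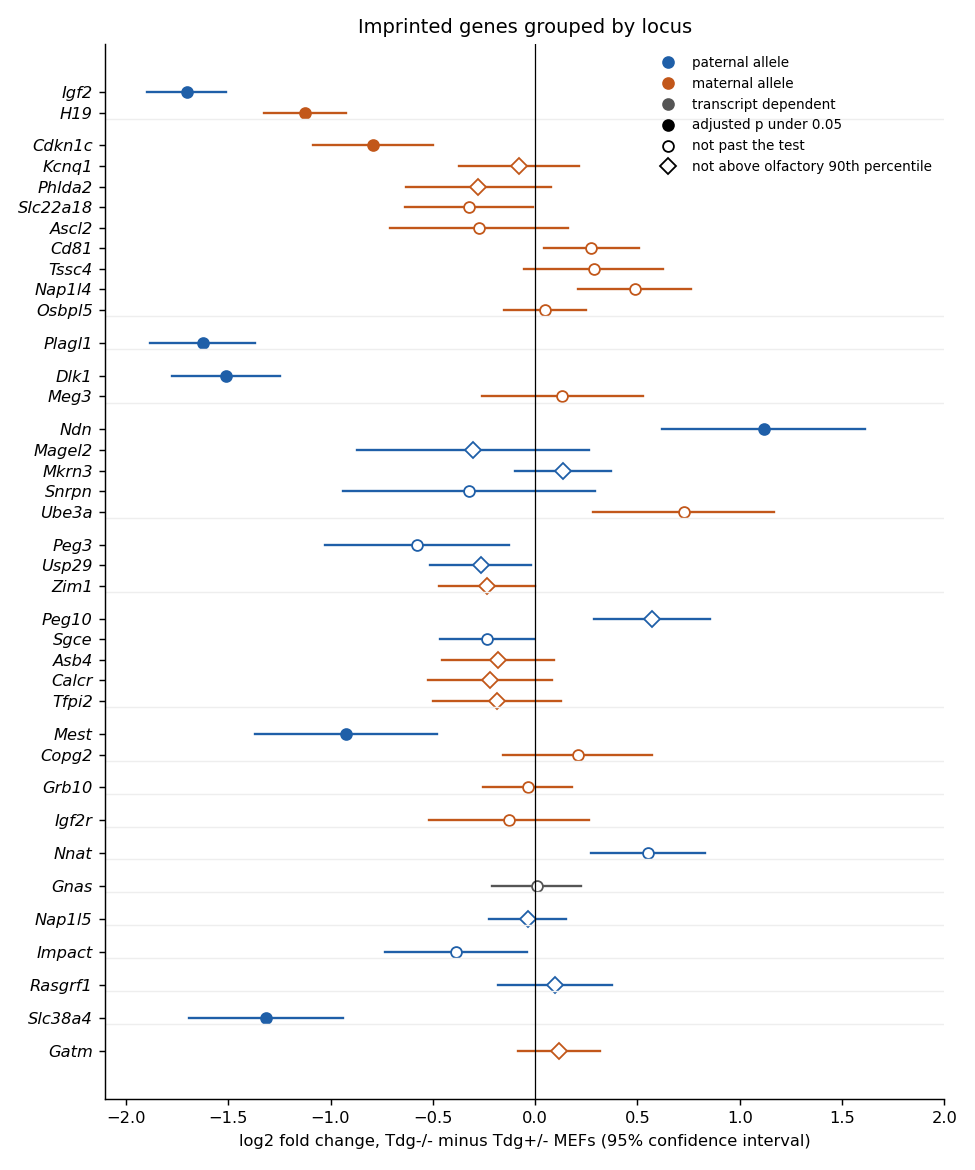
Log2 fold change (Tdg-/- minus Tdg+/- MEFs, horizontal axis) with its 95% confidence interval for 37 imprinted genes and H19, in blocks by locus. Colour gives the parental allele known to be active, filled symbols passed the test and diamonds mark genes whose level did not exceed the olfactory receptor 90th percentile; 7 filled symbols lie left of zero and Ndn lies right of it.

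The genes were also counted by the parental allele known to be active. Of 17 genes read from the paternal allele, 5 fell, 1 rose and 11 did not pass, with a median log2 fold change of -0.30. Of 19 genes read from the maternal allele in the test over genes, Cdkn1c fell and 18 did not pass, with a median of -0.08. Among genes above the olfactory 90th percentile the medians were -0.58 for 11 paternally expressed and 0.09 for 12 maternally expressed genes. These became -0.76 and 0.0047 without Tdg+/- replicate 1, and over all measured genes the medians were then -0.18 for the paternal and -0.06 for the maternal allele. The difference between the alleles was not tested. The maternal group holds the 9 genes whose imprinting is described in the placenta, with a median of 0.05. It also holds Ube3a and Calcr, whose imprinting is described in neurons and brain. Allelic expression in these fibroblasts was not measured, so allele and tissue of imprinting cannot be told apart in these medians. H19, a maternally expressed gene that fell, is not in these counts and medians. The groups of arrays did not overlap for 18 of the 37 genes. In 10 of them, 27% of the 37, every Tdg-/- array was below every Tdg+/- array, against 16.8% of all genes. In 8 of them, 21.6%, every Tdg-/- array was above, against 22.6% of all genes. Counted by probe set, 3 of 74 rose and 9 fell, whereas 1.96% of all probe sets rose, 1.07% fell and 3.02% did either. The Tdg-/- arrays were all above the Tdg+/- arrays for 16 of the 74 and all below for 23, against 20.6% and 16.7% of all probe sets.

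Igf2 and H19 share a control region and a set of enhancers but are read from opposite alleles, Igf2 from the paternal and H19 from the maternal one. Igf2 encodes insulin-like growth factor 2, a fetal growth factor. Its level was 11.13, 11.22 and 11.18 (log2) on the Tdg+/- arrays and 9.52, 9.44 and 9.46 on the Tdg-/- arrays. The arrays of a genotype lay close together and the genotypes were far apart, with means of 11.18 ± 0.05 and 9.47 ± 0.04 (SD, n = 3), a 3.26-fold fall (adjusted p = 0.000393). H19 gives a long noncoding RNA from which miR-675 is cut. The probe set annotated to H19 and Mir675 read 11.55, 11.63 and 11.52 on the Tdg+/- arrays and 10.44, 10.50 and 10.39 on the Tdg-/- arrays. H19 thus moved in the same direction as Igf2, with a difference of -1.13 ± 0.08 (log2, SE; adjusted p = 0.00207 over all probe sets), with no overlap between genotypes. Both falls passed with any 1 of the 6 arrays left out, with adjusted p-values up to 0.00890 for Igf2 and 0.0273 for H19. A second Igf2 probe set, near the low end of the scale at 7.15 in Tdg+/- cells, fell 1.68-fold (adjusted p = 0.0196 over all probe sets). That call was lost when Tdg+/- replicate 2 or 3 or any Tdg-/- array was left out (adjusted p 0.0521 to 0.118).

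The transcribed regions of Igf2 and H19 each hold a microRNA gene, and their 4 mature products are shown because the arrays measured the host transcripts and not these products. The sequences are from RefSeq (GRCm38.p6, minus strand of chromosome 7), with the seed, bases 2 to 8, in capitals. No seed is shared among them.
mmu-miR-483-5p: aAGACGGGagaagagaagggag
mmu-miR-483-3p: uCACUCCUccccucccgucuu
mmu-miR-675-5p: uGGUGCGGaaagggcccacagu
mmu-miR-675-3p: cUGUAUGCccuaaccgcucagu

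For Igf2, RefSeq gives 4 promoter windows of 300 bases, from 250 bases before to 50 bases after a transcript start. They hold 2, 7, 14 and 24 CG dinucleotides. CG, which reads the same on both strands, is the motif searched because it is where mammalian DNA carries most of its methylation; the median over 32851 promoter windows was 7. For each listed gene the window with the most CG was also counted. By gene, the median was 8 over 27025 genes and 20 over the 33 listed genes with a promoter entry. It was 17 over the 5 of these that fell and 21 over the 25 that did not pass. Cdkn1c and H19 had no promoter entry. The Igf2 window with the most CG, at chr7:142658755-142659054 (GRCm38.p6, minus strand), is shown with CG in capitals, and 20% of all windows hold as many or more.
Igf2: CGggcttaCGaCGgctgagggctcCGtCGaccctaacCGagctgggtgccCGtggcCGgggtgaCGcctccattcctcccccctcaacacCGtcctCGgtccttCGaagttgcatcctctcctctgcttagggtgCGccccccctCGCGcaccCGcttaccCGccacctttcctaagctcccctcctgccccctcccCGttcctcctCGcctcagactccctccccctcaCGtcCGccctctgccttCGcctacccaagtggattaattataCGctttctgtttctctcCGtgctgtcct

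Plagl1 lies alone among the listed genes on chromosome 10 and is read from the paternal allele. It encodes the zinc finger transcription factor ZAC1, which restrains cell proliferation and binds regulatory DNA of other imprinted genes. Its level was 10.44, 10.57 and 10.64 on the Tdg+/- arrays and 9.00, 9.00 and 8.76 on the Tdg-/- arrays, with no overlap. This was a 3.09-fold fall, from 10.55 ± 0.10 to 8.92 ± 0.14 (log2, SD, n = 3; adjusted p = 0.000836), and it passed with any 1 array left out (adjusted p up to 0.0125). The probe set used is of a type (x_at) that can also bind similar transcripts. A second Plagl1 probe set fell 1.55-fold (adjusted p = 0.0296 over all probe sets), at 6.89 in Tdg+/- and 6.26 in Tdg-/- cells. Among the 6 fits with 1 array left out, the second probe set passed only without Tdg+/- replicate 1; the other 5 gave adjusted p-values of 0.0655 to 0.188, and quantile normalization gave 0.0707. The promoter window of Plagl1 at chr10:13090582-13090881 (GRCm38.p6, plus strand) holds 26 CG, a number reached by 16.9% of windows.
Plagl1: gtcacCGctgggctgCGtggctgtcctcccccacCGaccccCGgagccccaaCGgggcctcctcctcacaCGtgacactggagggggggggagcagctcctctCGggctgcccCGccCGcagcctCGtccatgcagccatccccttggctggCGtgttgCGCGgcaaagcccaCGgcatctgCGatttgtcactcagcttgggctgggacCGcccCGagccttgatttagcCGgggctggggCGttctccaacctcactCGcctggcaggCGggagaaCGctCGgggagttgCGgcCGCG

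Dlk1 and Meg3 lie in 1 imprinted domain and are read from opposite alleles. Dlk1, paternally expressed, encodes a transmembrane protein of the Notch ligand family that holds back fat cell differentiation. Its level was 10.72, 10.78 and 11.02 on the Tdg+/- arrays and 9.44, 9.29 and 9.27 on the Tdg-/- arrays. The genotypes did not overlap, and the 2.85-fold fall passed with all arrays (adjusted p = 0.00127) and with any 1 left out (adjusted p up to 0.0187). Meg3, a maternally expressed long noncoding RNA, was read by 5 probe sets, none of which passed. The one with the highest level differed by 0.13 ± 0.17 (log2, SE; adjusted p = 0.579), with a 95% interval from -0.26 to 0.53. The other Meg3 probe sets had log2 fold changes from -0.23 to -0.12. This disagreement in sign rested on Tdg+/- replicate 1, without which the probe set with the highest level had -0.05 and the others -0.14 to -0.06. Within this locus the paternally expressed gene was therefore past the test and the maternally expressed one was not; the difference between the 2 genes was not tested. The Dlk1 window at chr12:109452573-109452872 (GRCm38.p6, plus strand) holds 9 CG, and 45.8% of windows hold as many or more.
Dlk1: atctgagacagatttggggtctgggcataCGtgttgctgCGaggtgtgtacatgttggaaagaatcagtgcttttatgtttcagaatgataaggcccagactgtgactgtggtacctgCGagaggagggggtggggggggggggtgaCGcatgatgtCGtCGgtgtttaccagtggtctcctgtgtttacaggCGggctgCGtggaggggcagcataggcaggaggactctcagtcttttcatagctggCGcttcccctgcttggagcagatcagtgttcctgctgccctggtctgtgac

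**Figure D2:**
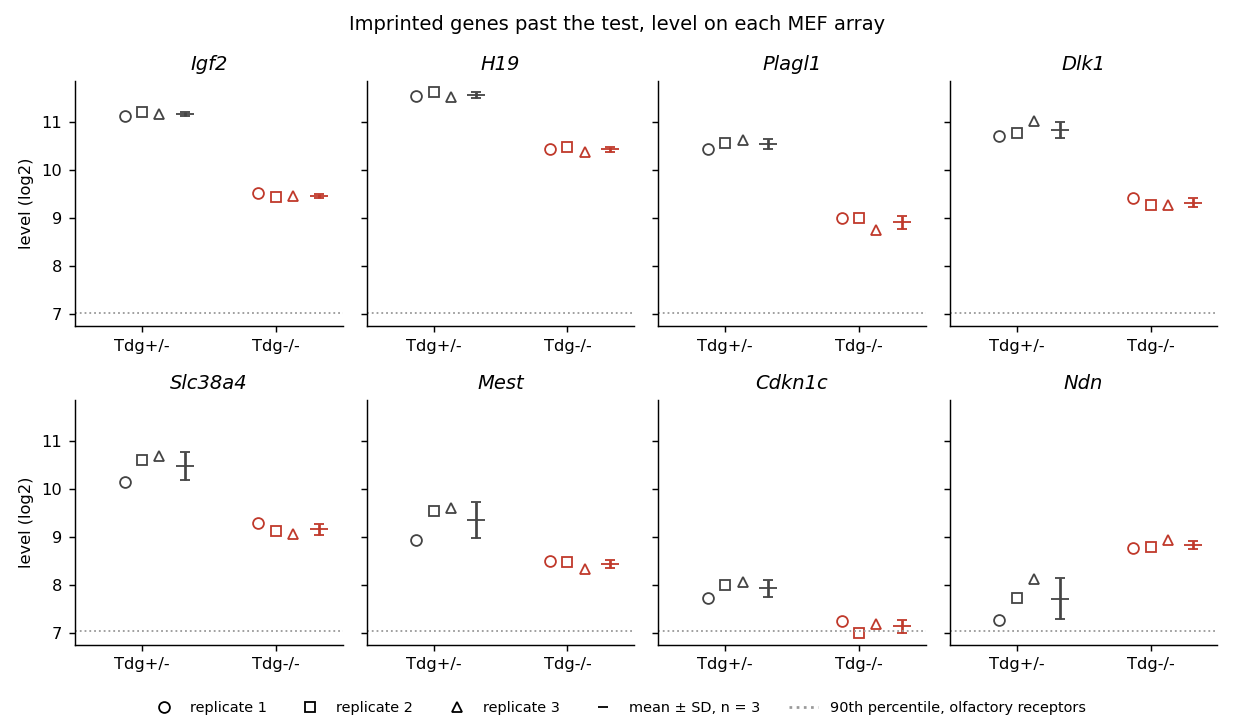
Level (log2, vertical axis) on each of the 6 MEF arrays for the 8 imprinted genes past the test, with the mean ± SD of 3 arrays beside the points and the olfactory receptor 90th percentile of 7.03 as a dotted line. In all 8 panels the Tdg+/- and Tdg-/- arrays do not overlap; levels of different genes come from different probe sets and are not comparable with each other.

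Slc38a4 and Mest are also read from the paternal allele. Slc38a4 encodes a transporter of neutral amino acids. Its level was 10.15, 10.60 and 10.68 on the Tdg+/- arrays and 9.29, 9.13 and 9.07 on the Tdg-/- arrays, a 2.49-fold fall (adjusted p = 0.00797). Tdg+/- replicate 1 was the lowest of its group, yet above all Tdg-/- arrays. The call was lost without Tdg+/- replicate 2 (adjusted p = 0.0580), Tdg-/- replicate 2 (0.0664) or Tdg-/- replicate 3 (0.0719). The second Slc38a4 probe set had a log2 fold change of -0.86 ± 0.35 (SE) and did not pass (adjusted p = 0.236 over all probe sets), and with the mean of both probe sets the gene did not pass (0.0604). The second probe set fell without Tdg+/- replicate 1 (log2 fold change -1.26, adjusted p = 0.000138 over all probe sets). Mest encodes a hydrolase-like protein of mesodermal tissue. It read 8.93, 9.54 and 9.60 on the Tdg+/- arrays and 8.49, 8.47 and 8.33 on the Tdg-/- arrays, a 1.90-fold fall that only just passed (adjusted p = 0.0480). Of the fits with 1 array left out, Mest passed without Tdg+/- replicate 1 (adjusted p = 1.59e-07) and in none of the other 5 (0.0744 to 0.239). In the test over all probe sets its adjusted p was 0.0594. Copg2, the neighbour of Mest, encodes a coat protein of transport vesicles; its difference of 0.21 ± 0.15 (log2, SE) did not pass (adjusted p = 0.375), and without Tdg+/- replicate 1 it was 0.32 (adjusted p = 0.0526).

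An intron of Mest holds Mir335, whose mature products were not measured. They are shown with the seed in capitals (RefSeq, GRCm38.p6, plus strand of chromosome 6), and their seeds differ from those of the miRNAs in Igf2 and H19.
mmu-miR-335-5p: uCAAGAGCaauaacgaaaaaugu
mmu-miR-335-3p: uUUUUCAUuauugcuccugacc

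In the Kcnq1 domain, a cluster of maternally expressed genes on chromosome 7, Cdkn1c was the only one of 9 measured genes past the test. Cdkn1c encodes p57Kip2, an inhibitor of cyclin-dependent kinases. Its level was 7.73, 8.0 and 8.06 on the Tdg+/- arrays and 7.24, 6.99 and 7.19 on the Tdg-/- arrays. The genotypes did not overlap, but the Tdg-/- arrays lay at the olfactory 90th percentile, so the 1.73-fold fall (adjusted p = 0.0220) may be understated. Cdkn1c passed without Tdg+/- replicate 1 (adjusted p = 4.44e-06) and did not pass with any other array left out (0.0509 to 0.140). Slc22a18, a membrane transporter gene, differed by -0.32 ± 0.13 (log2, SE; adjusted p = 0.213). Phlda2, a growth-restraining gene of the placenta, had -0.28 ± 0.15 (SE; adjusted p = 0.288), and Kcnq1, a potassium channel gene, -0.08 ± 0.12 (SE; adjusted p = 0.661).

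The 5 genes of the domain whose imprinting is known from the placenta did not pass. They had log2 fold changes from -0.27 for Ascl2, a transcription factor of trophoblast, to 0.49 for Nap1l4, a histone chaperone. Nap1l4 read 9.72, 9.89 and 10.00 on the Tdg+/- arrays and 10.26, 10.29 and 10.51 on the Tdg-/- arrays. These groups did not overlap, and the adjusted p was 0.0773. Cd81, a tetraspanin gene, differed by 0.27 ± 0.10 (log2, SE; adjusted p = 0.175), and Tssc4 had 0.29 ± 0.14 (SE; adjusted p = 0.270), again without overlap. Osbpl5, an oxysterol binding protein gene, had 0.05 ± 0.08 (SE; adjusted p = 0.692), with overlap. With Tdg+/- replicate 1 left out, Nap1l4 (adjusted p = 0.00444) and Cd81 (0.0470) rose. Tssc4 and Osbpl5 did not pass in that fit.

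The Snrpn domain, on chromosome 7, is the mouse counterpart of the Prader-Willi and Angelman region. Ndn, a paternally expressed gene whose product necdin restrains proliferation and supports neurons, was the only listed gene to rise. Its level was 7.27, 7.74 and 8.13 on the Tdg+/- arrays and 8.76, 8.80 and 8.93 on the Tdg-/- arrays. All Tdg-/- arrays were above all Tdg+/- arrays, although the Tdg+/- arrays were widely spread (7.71 ± 0.43 against 8.83 ± 0.09, log2, SD, n = 3; adjusted p = 0.0387). The rise did not pass without Tdg+/- replicate 2 (adjusted p = 0.150) or Tdg-/- replicate 1 (0.157), 2 (0.187) or 3 (0.205), nor with the mean of its probe sets (0.0781). All 8 Ndn probe sets had log2 fold changes above 0, from 0.003 to 1.19, and 2 passed in the test over all probe sets. Of the 8, 7 were above 0 without Tdg+/- replicate 1, from 0.007 to 0.96, and the eighth had -0.12. The Ndn window at chr7:62348027-62348326 (GRCm38.p6, plus strand) holds 11 CG, a number reached by 41.4% of windows.
Ndn: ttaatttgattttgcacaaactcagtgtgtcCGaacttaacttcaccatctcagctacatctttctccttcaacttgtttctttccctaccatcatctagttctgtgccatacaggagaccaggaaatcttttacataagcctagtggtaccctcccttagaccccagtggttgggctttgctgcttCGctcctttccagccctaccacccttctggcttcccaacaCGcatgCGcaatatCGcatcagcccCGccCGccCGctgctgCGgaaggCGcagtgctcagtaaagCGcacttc

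Ube3a, which encodes a ubiquitin ligase and is imprinted in neurons, read 7.92, 8.36 and 8.64 on the Tdg+/- arrays and 8.94, 8.98 and 9.17 on the Tdg-/- arrays. The genotypes did not overlap, but Ube3a did not pass (log2 fold change 0.73 ± 0.19, SE; adjusted p = 0.0922). Its other probe sets, at lower levels, had log2 fold changes from 0.03 to 0.50. Ube3a rose without Tdg+/- replicate 1 (adjusted p = 0.00134) and without Tdg+/- replicate 3 (0.0497). Snrpn, a splicing factor gene, was read by 5 probe sets, of which 4 are also annotated to Snurf, the upstream reading frame of the same transcript. The one annotated to Snrpn alone differed by -0.32 ± 0.26 (log2, SE; adjusted p = 0.404), with Tdg+/- replicate 1 at 8.05 above the other 5 arrays; without that array the difference was -0.008. The 2 with the highest level had log2 fold changes of -0.14 ± 0.10 and -0.29 ± 0.10 (SE) and did not pass. One near the low end of the scale rose 1.57-fold, from 6.45 ± 0.20 to 7.10 ± 0.02 (log2, SD, n = 3; adjusted p = 0.0418 over all probe sets). Left-out arrays ended that call, except for Tdg+/- replicates 1 and 3 (adjusted p otherwise 0.181 to 0.218), as did quantile normalization (0.0547). The Snrpn probe sets therefore gave different answers. Magel2, a relative of Ndn, and Mkrn3, a zinc finger gene, had log2 fold changes of -0.30 ± 0.24 and 0.14 ± 0.10 (SE) near the low end of the scale, and neither passed.

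Peg3, a paternally expressed zinc finger gene, heads a further domain on chromosome 7. The probe set used for it read 8.85, 9.34 and 9.43 on the Tdg+/- arrays and 8.44, 8.56 and 8.88 on the Tdg-/- arrays. These groups overlapped, and Peg3 did not pass (log2 fold change -0.58 ± 0.19, SE; adjusted p = 0.149). A second Peg3 probe set read 8.58, 8.56 and 8.36 against 7.79, 7.76 and 7.79, a 1.65-fold fall without overlap (adjusted p = 0.0147 over all probe sets). This second probe set passed without Tdg+/- replicate 1 or 3 and not in the other 4 fits with 1 array left out (0.0908 to 0.124). The third did not overlap either and differed by -0.55 ± 0.19 (log2, SE; adjusted p = 0.193 over all probe sets); without Tdg+/- replicate 1 it fell (adjusted p = 3.34e-05). With quantile normalization (adjusted p = 0.0358), with the mean of its probe sets (0.0481) or without Tdg+/- replicate 1 (0.000191), Peg3 fell. Usp29, a ubiquitin protease gene, and Zim1, a zinc finger gene, had log2 fold changes of -0.27 ± 0.10 and -0.24 ± 0.10 (SE) near the low end of the scale. Neither passed, and Usp29 fell when Tdg+/- replicate 1 was left out (adjusted p = 0.0105).

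**Figure D3:**
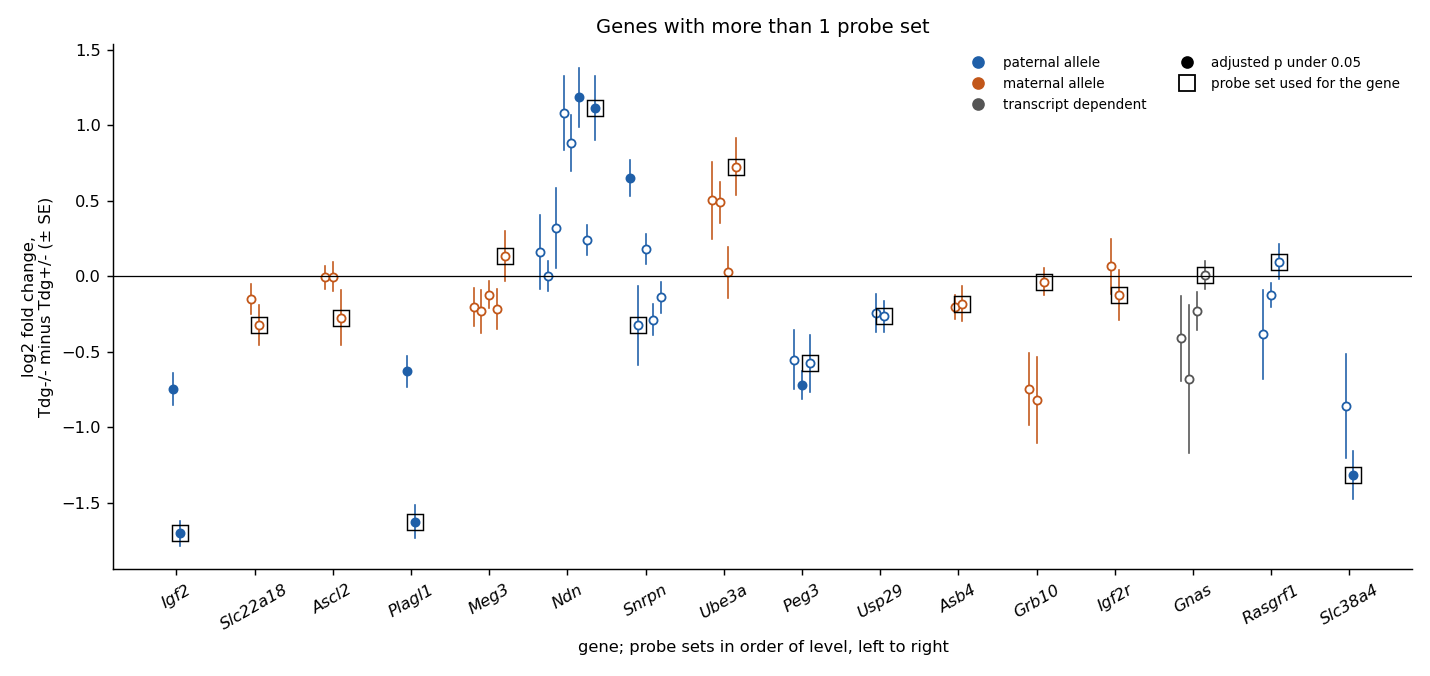
Log2 fold change (Tdg-/- minus Tdg+/-, vertical axis) ± SE for each probe set of the genes read by more than 1, in order of level from left to right within a gene; filled points passed the test over all probe sets and squares mark the probe set used for the gene. The probe sets of Igf2, Plagl1, Peg3 and Slc38a4 all lie below zero and those of Ndn all above it, whereas Snrpn, Meg3, Igf2r, Gnas and Rasgrf1 have probe sets on both sides. Without Tdg+/- replicate 1, all probe sets of Meg3, Igf2r, Gnas and Rasgrf1 lie below zero.

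In the Peg10-Sgce cluster on chromosome 6 no gene passed. Peg10, a gene derived from a retrotransposon, read 5.89, 5.75 and 6.0 on the Tdg+/- arrays and 6.62, 6.42 and 6.30 on the Tdg-/- arrays. These did not overlap, with a difference of 0.57 ± 0.12 (log2, SE; adjusted p = 0.0532), but all lay below the olfactory 90th percentile. Peg10 rose with quantile normalization (adjusted p = 0.0358), with the mean over probe sets (0.0490), although it has only 1, and without Tdg+/- replicate 1 (0.00101). Sgce, which encodes a sarcoglycan, read 9.35, 9.24 and 9.11 on the Tdg+/- arrays and 9.05, 8.94 and 8.99 on the Tdg-/- arrays, which did not overlap (difference of -0.23 on the log2 scale, adjusted p = 0.217). Asb4, Calcr and Tfpi2, which encode a ubiquitin ligase adaptor, the calcitonin receptor and a protease inhibitor, had log2 fold changes from -0.22 to -0.18 at low levels.

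The remaining loci hold single measured genes, and none of them passed. Nnat, a paternally expressed gene for a small membrane protein of the brain, read 8.27, 8.27 and 8.61 on the Tdg+/- arrays and 8.90, 8.96 and 8.93 on the Tdg-/- arrays. The groups did not overlap (log2 fold change 0.55 ± 0.12, SE; adjusted p = 0.0563). Nnat rose without Tdg+/- replicate 1 (adjusted p = 0.00184) or 3 (0.0238), and when only probe sets above the median level were kept (0.0334). Impact, a paternally expressed regulator of translation, differed by -0.39 ± 0.15 (log2, SE; adjusted p = 0.192). It fell with quantile normalization (adjusted p = 0.0230) and without Tdg+/- replicate 1 (0.000774). Grb10 encodes an adaptor that dampens insulin and IGF signalling. Its probe set with the highest level differed by -0.04 ± 0.09 (log2, SE; adjusted p = 0.793), whereas the others had -0.82 ± 0.28 and -0.75 ± 0.24 (SE), without passing (adjusted p = 0.189 and 0.168 over all probe sets). For both of these the genotypes did not overlap, and Tdg-/- replicate 3 was the lowest array, at 8.54 and 7.10. Both fell without Tdg+/- replicate 1 (adjusted p = 0.0201 and 0.0434), and without Tdg-/- replicate 3 their differences were -0.50 and -0.48.

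Igf2r, the maternally expressed receptor that clears IGF2, differed by -0.13 ± 0.16 (log2, SE; adjusted p = 0.592), with a 95% interval from -0.52 to 0.26. In the probe set used, at a level of 8.59, Igf2r fell without Tdg+/- replicate 1 (adjusted p = 0.0134). A second Igf2r probe set, at 8.27, had 0.07 ± 0.18 (SE; adjusted p = 0.820 over all probe sets). Without that array the second probe set had -0.14 and did not pass (adjusted p = 0.264 over all probe sets). Gnas encodes the alpha subunit of the stimulatory G protein from a locus with transcripts of differing imprint. Its probe set with the highest level read 12.95, 12.89 and 13.07 on the Tdg+/- arrays and 12.93, 13.06 and 12.93 on the Tdg-/- arrays, so the groups overlapped (log2 fold change 0.01 ± 0.09, SE). Rasgrf1, a Ras exchange factor gene, Nap1l5, a relative of histone chaperones, and Gatm, which encodes an enzyme of creatine synthesis, had log2 fold changes of 0.10, -0.04 and 0.12 at low levels.

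Several imprinted probe sets were high only on Tdg+/- replicate 1. A Gnas probe set read 8.01 on it and 6.28 and 6.04 on the other Tdg+/- arrays, and a Rasgrf1 probe set 6.01 against 4.92 and 4.92. Magel2 read 7.32 against 6.43 and 6.44. Without that array the log2 fold change was -0.01 for Magel2, -0.02 for the Rasgrf1 probe set just given, -0.07 for Ascl2 and -0.12 for Phlda2. It was -0.01 for the Rasgrf1 probe set used for the gene, on which that array was the lowest. The same fit gave -0.09 for Calcr, -0.06 for Tfpi2 and 0.03 for Kcnq1. For Mkrn3 and Tssc4, which were lowest on that array, it gave 0.07 and 0.14. None of these genes passed in that fit. Of the 33 imprinted probe sets not above the olfactory 90th percentile, 14 were higher on that array than on all the others, or 42.4%, against 57.2% of all probe sets at such levels.

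Without Tdg+/- replicate 1, 10 of the 37 genes fell and 6 rose. The falls are 27% of the imprinted genes, against 7.87% of all genes in that fit, and the rises are 16.2%, against 14.1%. Of the genes read from the paternal allele 8 fell and 3 rose, and of those read from the maternal allele 2 fell and 3 rose. The median log2 fold change of the 37 genes was then -0.06. With one of the other arrays left out, 3 or 4 imprinted genes fell, always with Igf2, Plagl1 and Dlk1 among them. The number that rose was 3 without Tdg+/- replicate 3 and 0 without Tdg+/- replicate 2 or any Tdg-/- array. Of all 12394 genes, 279 rose and 112 fell without Tdg+/- replicate 3. Without Tdg+/- replicate 2 or any Tdg-/- array, 51 to 69 of all genes rose and 44 to 60 fell.

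**Figure D4:**
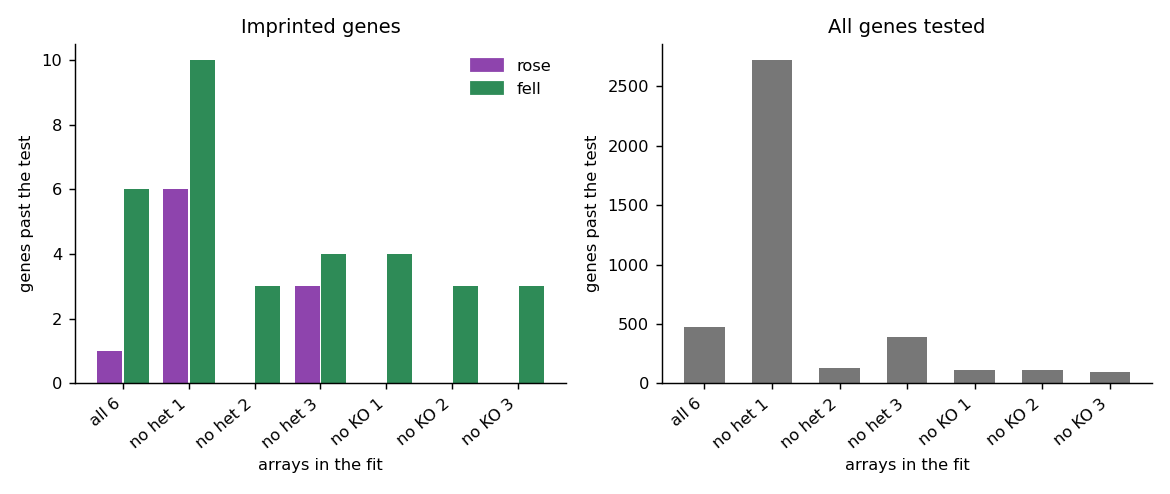
Number of genes past the test (vertical axes) with all 6 arrays and with each array left out in turn, for the 37 imprinted genes on the left and all 12394 genes on the right. The counts were highest without Tdg+/- replicate 1, with 6 rises and 10 falls among imprinted genes and 2722 changed genes in all.

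**Figure D5:**
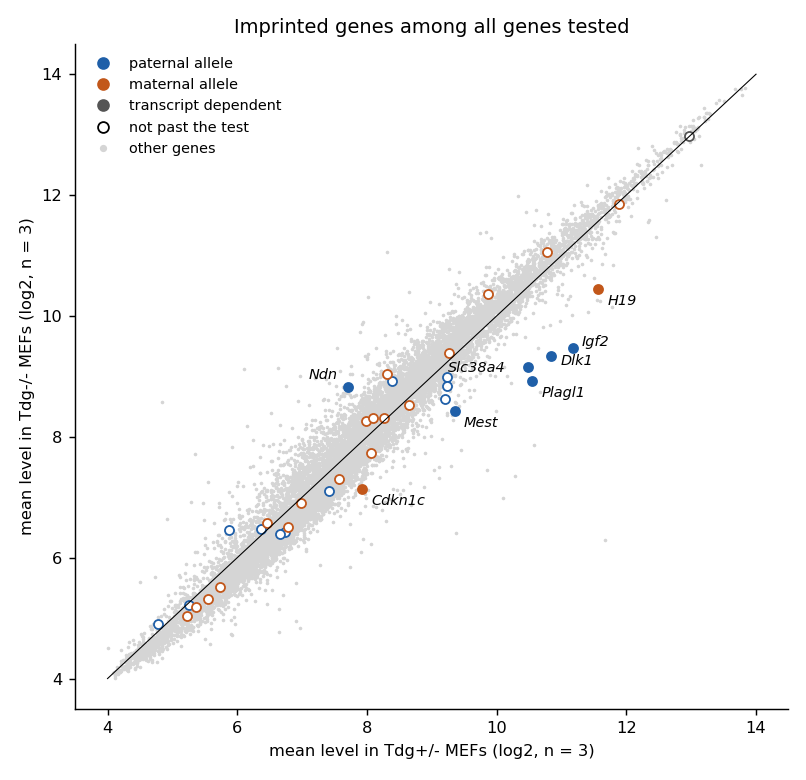
Mean level in Tdg-/- MEFs (vertical axis) against mean level in Tdg+/- MEFs (horizontal axis), both log2 with n = 3, for all genes tested in grey and the imprinted genes in colour by parental allele; the line marks equal levels. Igf2, Plagl1, Dlk1, Slc38a4, Mest, Cdkn1c and H19 lie below the line and Ndn above it.

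From a further list of imprinted genes, 27 were measured, of which 2 rose, 1 fell and 24 did not pass, with a median log2 fold change of -0.03. Of all genes tested, 2.52% rose and 1.32% fell. Pon2, an antioxidant lactonase gene of the Sgce cluster, rose 2.07-fold (adjusted p = 0.00527), which was lost without Tdg-/- replicate 3 (adjusted p = 0.0504). Qpct, which encodes glutaminyl cyclase, rose 1.63-fold (adjusted p = 0.0118). The mean levels of Pon2 (6.88) and Qpct (6.96) over the arrays did not exceed the olfactory 90th percentile of 7.03. Dcn, which encodes the matrix proteoglycan decorin and is also a fibroblast marker, fell 1.60-fold (adjusted p = 0.0207). Qpct and Dcn both passed without Tdg+/- replicate 1 or 3, and neither passed without Tdg+/- replicate 2 or any Tdg-/- array (adjusted p up to 0.0980 and 0.137). Without Tdg+/- replicate 1, 4 genes of the list rose and 1 fell, where 14.1% of all genes rose and 7.87% fell.

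Genes that lay down, protect or erase imprints were measured in 19 cases, and none passed the test with limma, 4 having an unadjusted p under 0.05. Their median log2 fold change was 0.05. Without Tdg+/- replicate 1 it was 0.0003, and 5 of the 19 rose, Trim28 among them, and none fell, where 14.1% of all genes rose. Dnmt1, the maintenance methyltransferase, differed by 0.08 ± 0.09 (log2, SE; adjusted p = 0.550). Trim28, the corepressor that guards imprints with the zinc finger protein Zfp57, had 0.50 ± 0.12 (SE; adjusted p = 0.0800), and Zfp57 itself -0.29 ± 0.17 (SE; adjusted p = 0.312). Of 16 measured genes of the IGF axis, in which Igf2 acts, 3 rose and none fell, where 2.52% of all genes rose and 1.32% fell. Igfbp2 and Igfbp7, which encode IGF binding proteins, rose, the former 3.16-fold with an adjusted p of 0.000393 and the latter 2.20-fold with 0.00186, and both passed with any 1 array left out. Igf1 rose 1.82-fold (adjusted p = 0.0278), which was kept without Tdg+/- replicate 1 and lost without any other array (adjusted p 0.0545 to 0.161). Without Tdg+/- replicate 1, 5 genes of the axis rose and 3 fell, where 14.1% of all genes rose and 7.87% fell.

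Of 19 fibroblast markers measured, 10 fell, none rose and 9 did not pass, where 1.32% of all genes fell and 2.52% rose. Every Tdg-/- array was below every Tdg+/- array for 13 of the 19 and above for 4, against 16.8% and 22.6% of all genes. The mean level of these markers (log2) was 10.57 to 10.73 on the Tdg+/- arrays and 9.99 to 10.09 on the Tdg-/- arrays. Postn fell 7.60-fold, Fap 2.49-fold, Col6a2 2.44-fold and Pdgfra 2.35-fold. The mean level of Fap, 6.24, did not exceed the olfactory 90th percentile of 7.03, so its expression was not established. Among those not past the test, Pdgfrb differed by 1.12 on the log2 scale with every Tdg-/- array above (adjusted p = 0.0592), Col1a1, Fn1 and Vim were also without overlap on that side (0.15, 0.08 and 0.09), and Sparc differed by -0.0005. Pdgfrb rose without Tdg+/- replicate 1 or 3 and did not pass with any other array left out. The number of markers that fell was 14 without Tdg+/- replicate 1, 9 without Tdg+/- replicate 3, 6 without Tdg+/- replicate 2 or Tdg-/- replicate 1 or 2, and 5 without Tdg-/- replicate 3. Of all 12394 genes, 976 (7.87%) fell without Tdg+/- replicate 1, 112 without Tdg+/- replicate 3 and 44 to 60 in the other fits. Col3a1, Col6a2, Thy1, Pdgfra and Postn passed in all 6 of these fits, whereas Fap did not pass without Tdg+/- replicate 2 or any Tdg-/- array (adjusted p up to 0.0695). Trophoblast markers, of which 3 of 11 fell, had mean levels of 6.94 to 7.19 and of 6.62 to 6.64; Gata3, a transcription factor of trophoblast, fell 3.12-fold and passed with any 1 array left out, which Eomes and Cdh3 did in 1 and 2 of the 6 fits. Of the other marker lists, 1 of 15 neural genes rose (Gap43), 1 of 9 haematopoietic genes rose (Cd14), 2 of 10 pluripotency genes rose (Sox2, 13.4-fold, and Klf4), 1 of 10 endothelial genes fell (Kdr), 1 of 10 epithelial genes fell (Krt19) and no muscle gene passed (1 of 10 with an unadjusted p under 0.05). Sox2 passed with any 1 array left out, Krt19 in 4 of the 6 fits, Cd14 and Klf4 in 2, and Gap43 and Kdr in 1. The mean of Sox2 was 4.83 on the Tdg+/- arrays, below the olfactory 90th percentile, and 8.58 on the Tdg-/- arrays. The part of these markers in the changes of imprinted genes was not tested. In such bulk samples fewer cells of a type and less RNA per cell cannot be told apart.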

How the data were processed

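RNA from 6 MEF samples was measured on Affymetrix arrays, grouped by the labels. The log2 values were used as the authors deposited them; their array medians were 7.38 to 7.42. MAS5, RMA, affy and limma appear in the submitters' processing notes, without saying which made the values. No arrays were identical.

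Gene symbols are those of GEO's platform annotation, brought up to date with RefSeq (GRCm38.p6). A single symbol was found for 20393 of 22690 probe sets, several for 691 and none for 1606, and 20364 matched RefSeq. Genotypes were compared with limma 3.58.1 (lmFit, eBayes; R 4.3.3) and Benjamini-Hochberg adjustment at 0.05, over 12394 genes and again over all probe sets. The procedure was tested on simulated data. All 40 listed genes are described. From other lists the genes named were, with exceptions, among the called ones with the largest change, up to 4 a list. Dnmt1, Trim28 and Zfp57 were named after their values were seen. The fibroblast markers Col3a1, Thy1, Pdgfrb, Col1a1, Fn1, Vim and Sparc were also named outside this rule. Members, alleles, lists and tests were chosen with earlier results of these data known. Alternatives were quantile normalization, the mean of probe sets, adjustment over all probe sets, leaving out low probe sets, a replicate block, a variance trend and leaving out each array.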

Additional observations from a re-analysis of the deposited data

How the results depend on the processing

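With each array left out in turn, imprinted genes that rose numbered 0 to 6 and those that fell 3 to 10, their median log2 fold change lay between -0.26 and -0.06, and 95 to 2722 of all genes changed, against 475 with all arrays. With quantile normalization 2 imprinted genes rose and the median was -0.11, where 335 of all 12394 genes rose. When only probe sets above the median level were kept 3 imprinted genes rose and their median was -0.13, where 437 of 6948 genes rose. Whether replicate numbers pair the samples is not settled. The deviations of same-numbered arrays correlated at 0.302, 0.045 and 0.272, and those of differently numbered arrays at -0.359 to 0.111. With a replicate block 237 genes changed; of the imprinted genes 1 rose and 4 fell, Cdkn1c (adjusted p = 0.0605) and Mest (0.0808) being lost, and H19 had 0.0232. Over 439 pairs of an imprinted gene and an alternative, 399 kept their side of the threshold, 22 lost a call, 18 gained one and 0 called values changed sign; 14 values past the threshold in neither fit did. The median of all genes was 0.13 with the low probe sets left out, against -0.02. Lacking detection calls, the values limit what can be said of the 13 genes at low signal.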
